A study of Mus musculus with 8 samples.

Results

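The genes examined here encode the nuclear subunits of the 5 complexes of oxidative phosphorylation, measured in lymph node cells of naive and immunized mice. A probe set was a member when the array annotation gave it exactly 1 symbol with one of the prefixes Ndufa, Ndufb, Ndufc, Ndufs, Ndufv, Sdha, Sdhb, Sdhc, Sdhd, Uqcr, Cox4, Cox5, Cox6, Cox7, Cox8 or Atp5, and the Ndufaf genes were left out. This gave 82 genes, out of all 12393 genes with a symbol of their own on the array, measured by 154 of its 22626 probe sets without controls. Complex I had 68 probe sets of 34 genes, complex II 11 of 7, complex III 15 of 8, complex IV 32 of 16 and complex V 28 of 17. The prefixes also took in 4 probe sets of 3 assembly factors of complex II (Sdhaf1, Sdhaf2 and Sdhaf4), and Ndufa4 counts here under complex I by its symbol although the protein is now placed in complex IV. Of the genes, 45 had several probe sets, which share their transcript and are not independent of each other.

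RNA came from lymph node cells that were put into suspension and sorted by flow cytometry. The mice were of the inbred strain B10.BR. The 3 groups were cells of naive mice (3 arrays), cells taken 7 days after immunization (3 arrays) and cells taken 28 days after it (2 arrays), each hybridised to Affymetrix mouse arrays. What was injected, which cells were sorted and the age of the mice are not stated in the labels. Nor do they state that each replicate is a different animal, and the p-values reflect only array-to-array spread, which may be technical.

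Oxidative phosphorylation takes place in the inner mitochondrial membrane. Complexes I and II take electrons from NADH and succinate, complex III passes them to cytochrome c, complex IV hands them to oxygen, and complex V uses the proton gradient built by complexes I, III and IV to make ATP. Resting lymphocytes draw much of their ATP from it, and lymphocytes that enter division after antigen contact are known to raise mitochondrial mass and respiration together with glycolysis.

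Each value is the log2 of a probe set's ratio to its median among all arrays (or, for dim probe sets, to a shared floor), so levels of different genes cannot be compared. A difference is one group's mean minus the other's on this scale, and for a dim probe set it may understate the change. Of the members, 139 probe sets of 76 genes (90.3%) reached a ratio of 1 on 2 arrays or more and were tested, against 57.6% of all probe sets. The 15 not tested were 1 probe set each of Ndufab1, Ndufb1, Ndufb9, Ndufs4, Uqcr10, Cox4i2, Cox5b, Cox6a2, Cox6b2, Cox8a, Cox8b and Cox8c, and 3 of Uqcrq. By complex, 64, 11, 11, 25 and 28 probe sets of complexes I to V were tested.

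The arrays did not separate by time alone. The 18 hybridisation spike-in controls had a median log2 ratio between -1.70 and -1.03 on the 3 day 7 arrays and -1.16 on naive replicate 1, against 0.64 to 1.41 on the other 4 arrays, and the first principal component put naive replicate 1 (-44.5) with the day 7 arrays (-71.7 to -55.4). All day 7 arrays therefore lie in the low set and both day 28 arrays in the high set, and time and set cannot be told apart between them. B cell markers were higher at day 28, where their median log2 ratio was 2.91 and 2.21 on the day 28 arrays, against -0.48, -0.11 and -0.15 on the day 7 arrays. Of 17 B cell probe sets tested, 11 passed the threshold against day 7 and 8 against naive cells. Mitosis genes were higher at day 7, with 10 of 24 probe sets tested past the threshold against naive cells. Within the day 7 arrays alone, the 3′ minus 5′ log2 difference of control probe sets ran from -1.18 to 1.17 for Gapdh and from -0.42 to 2.76 for beta-actin, but only from 0.46 to 0.62 for the transferrin receptor and from 0.30 to 0.74 for pyruvate carboxylase. T cell markers were detected by the same criterion for 18 of 19 probe sets and those of stroma and endothelium for 2 of 16. In such bulk RNA, a different share of a cell type and a different amount of RNA per cell cannot be told apart.

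The members as a group lay higher at day 7 than in naive cells and lower at day 28 than at day 7. Their median log2 ratio was -0.03, -0.52 and -0.20 on the naive arrays, 0.75, 0.12 and 0.46 on the day 7 arrays, and -0.53 and -0.53 on the day 28 arrays. Every day 7 array lay above every naive array, and both day 28 arrays lay below every other array, naive replicate 2 by little. The median over all 22626 probe sets stayed between -0.47 and -0.27 on the same arrays.

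**Figure D1:**
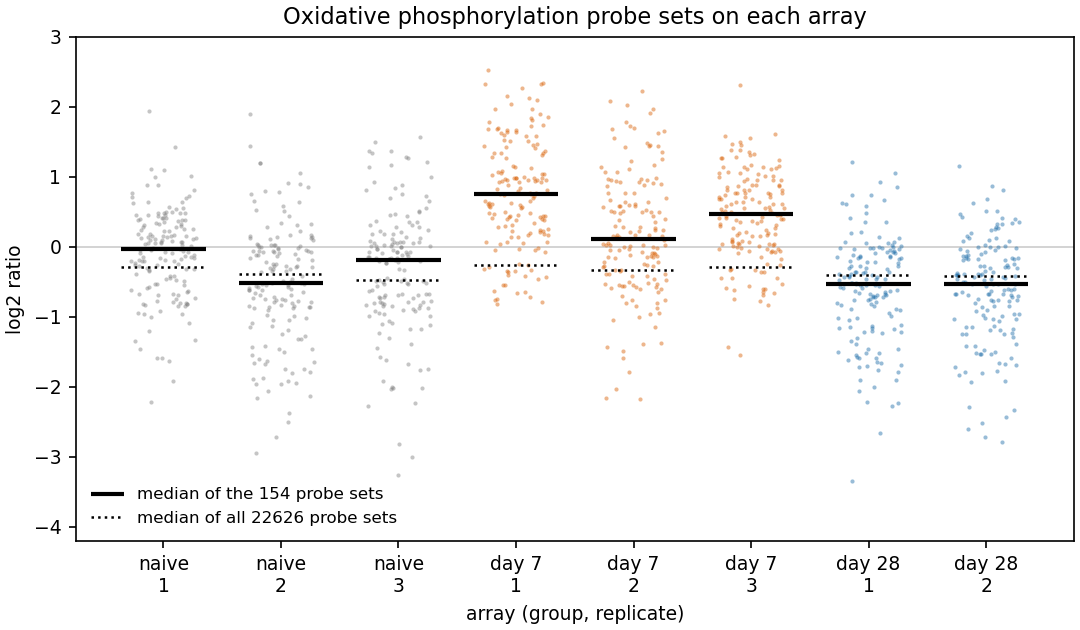
Log2 ratios of the 154 member probe sets (points) on each of the 8 arrays, with the median of the members (solid bar) and the median of all 22626 probe sets (dotted bar). The members' median lies above 0 on the 3 day 7 arrays, at 0.75, 0.12 and 0.46, and below 0 on the naive and day 28 arrays.

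At day 7 no member passed the test, and most members lay above naive cells. With limma, 0 of the 139 members tested had an adjusted p under 0.05 against naive cells, where 1.17% of all 13042 probe sets tested did (1.06% higher and 0.107% lower). At an unadjusted p under 0.05, 55 members (39.6%) were higher and 0 lower, against 12.4% and 3.08% of all probe sets tested. Among all 154 members, 127 (82.5%) had a difference above 0, against 53.3% of all probe sets, and the median difference was 0.74, against 0.02 over all probe sets. Among probe sets tested, the median was 0.82 for members, against 0.11. The 3 day 7 arrays lay above all 3 naive arrays for 53 of the 154 members, where 12.6% of all probe sets did, and below them for 1, where 8.05% did (a Cox7c probe set, named after its values were seen).

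The count of calls depended on naive replicate 1. Without it, 36 of the 139 members passed the threshold, all of them higher at day 7, which is 25.9% of the members against 13.2% of all probe sets tested, and the median difference was 0.68. These 36 probe sets comprised 17 of complex I, 2 of complex II, 2 of complex III, 6 of complex IV and 9 of complex V. Every remaining naive array then lies in the high spike-in set and every day 7 array in the low one. Within the low set, where the 3 day 7 arrays can be set against naive replicate 1 alone, the median difference was 0.63, with no test.

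At day 28, 7 members fell relative to day 7 and 0 rose. These 7 are 5.04% of the 139 members tested, against 0.882% of all probe sets tested that were lower and 1.30% in either direction. They were Ndufb7, Ndufb2, Ndufb8, Ndufa3, Ndufc1 and Ndufv3 of complex I and Atp5k of complex V. At an unadjusted p under 0.05, 63 members (45.3%) were lower at day 28 and 1 higher, against 13.1% and 3.47% of all probe sets tested. The median difference was -1.08, against -0.05 over all probe sets, and among those tested it was -1.22, against -0.16. Of 154 members, 90 had both day 28 arrays below all 3 day 7 arrays and 5 above them, where 29.7% and 13.5% of all probe sets did. A term for the spike-in set, which in this comparison rests on the naive arrays, gave a median of -0.60 and 0 calls, among members and among all 13042 probe sets. Without naive replicate 1 the count of 7 became 29 (20.9% of the members, against 6.21% of all probe sets tested). It was 3 without naive replicate 2 or 3 (2.16%, against 0.583% and 0.989%), 1 without either day 28 array (0.719%, against 0.222% and 0.567%) and 0 without any of the day 7 arrays (against 0.192% to 0.767%).

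At day 28 against naive cells the members lay slightly lower. With limma, 0 of 139 members passed an adjusted p of 0.05, where 0.322% of all probe sets tested did (0.268% higher and 0.0537% lower). At an unadjusted p under 0.05, 13 members (9.35%) were lower and 0 higher, against 3.21% and 3.13% of all probe sets tested. The median difference was -0.22, against -0.03 over all probe sets, and -0.13 when both day 28 arrays were set against naive replicates 2 and 3, the naive arrays of the same spike-in set. Among probe sets tested, with all arrays, the median was -0.27 for members, against -0.05. Both day 28 arrays lay below all naive arrays for 29 of the 154 members and above them for 3, where 11.8% and 6.59% of all probe sets did. The 3 comparisons share their arrays and are not independent of each other.

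**Figure D2:**
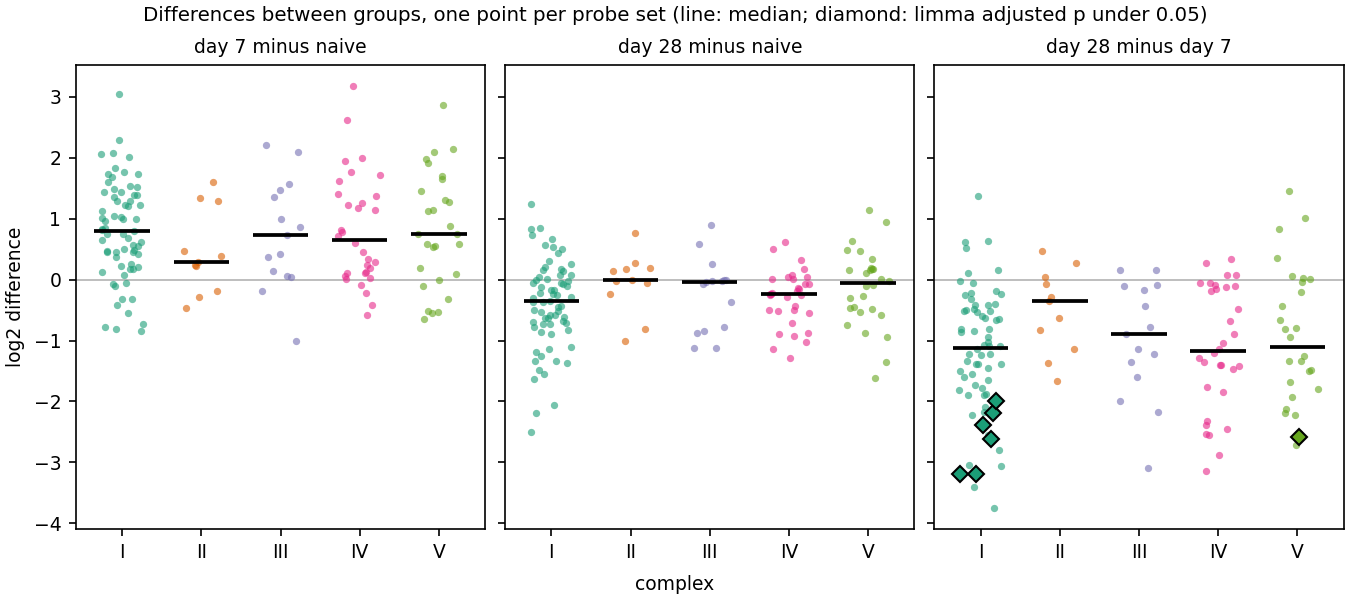
Log2 difference of each member probe set (point) between groups, by complex, for day 7 minus naive, day 28 minus naive and day 28 minus day 7. Horizontal bars are medians and diamonds mark the 7 probe sets with a limma adjusted p under 0.05, all of them lower at day 28 than at day 7.

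By complex, the median difference at day 7 against naive cells was 0.81 for complex I, 0.29 for complex II, 0.74 for complex III, 0.66 for complex IV and 0.75 for complex V. At day 28 against day 7 it was -1.12, -0.36, -0.89, -1.18 and -1.10 in the same order. Complex II thus had the smallest median in both comparisons. Within the low spike-in set, day 7 minus naive replicate 1 had medians of 0.63, -0.04, 0.69, 0.28 and 0.79 for complexes I to V, with no test. In complex II, naive replicate 1 (0.40) lay above the day 7 arrays 2 and 3, whereas in complexes I, III and IV all 3 day 7 arrays lay above all 3 naive arrays.

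**Figure D3:**
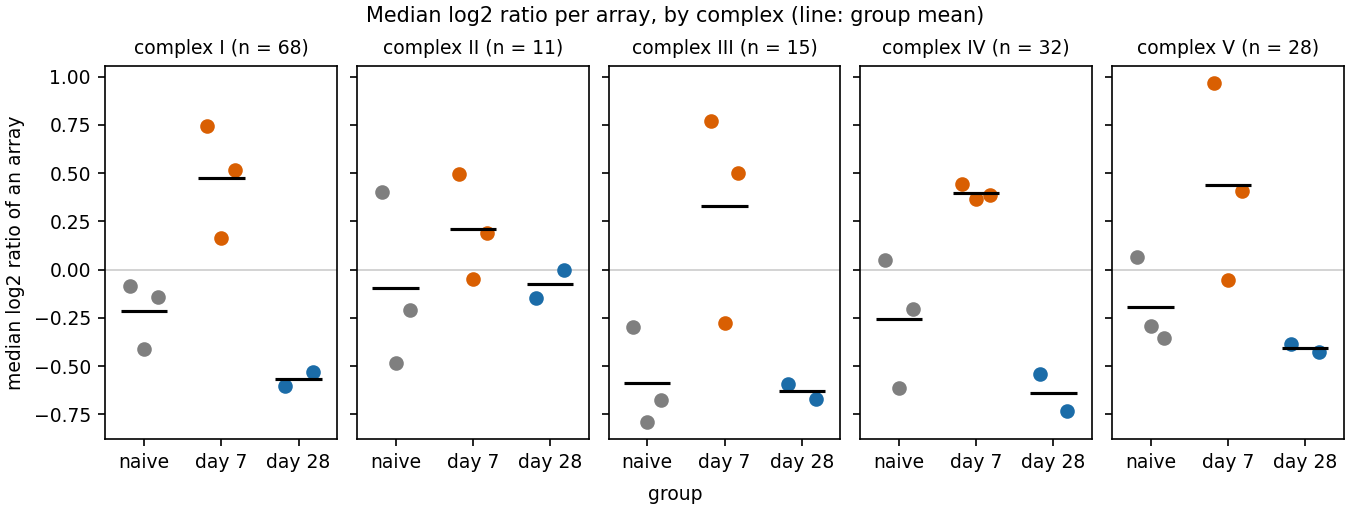
Median log2 ratio of the member probe sets of each complex on every array (points), with the mean of each group (bar). In complexes I, III and IV the 3 day 7 arrays lie above all naive and day 28 arrays, while in complexes II and V naive and day 7 arrays overlap.

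Complex I, the NADH dehydrogenase, has core subunits that carry the flavin and the iron-sulphur clusters and a larger set of accessory subunits around them. The core genes on the array had smaller differences than the accessory genes. Their 16 probe sets had a median difference of 0.20 at day 7 against naive cells, with 9 above 0. Of the 16, 1 was higher at an unadjusted p under 0.05, against 12.4% of all probe sets tested. The 52 accessory probe sets had a median of 1.02, with 48 above 0. Of the 48 tested, 26 were higher at an unadjusted p under 0.05, against the same 12.4%. This contrast in medians was not seen within the low spike-in set, where day 7 minus naive replicate 1 had a median of 0.84 for core and 0.62 for accessory probe sets.

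Among core genes, Ndufs1, the largest subunit with iron-sulphur clusters, read -0.03, 0.03 and -0.69 in naive cells, 0.58, -0.59 and -0.03 at day 7, and 1.05 and 0.19 at day 28. Ndufv1, which binds NADH and the flavin, had probe sets with differences of -0.73, -0.54 and -0.42 at day 7 against naive cells. The second of these was low on naive replicate 1 (-1.91) and day 7 replicate 2 (-1.79), so naive and day 7 arrays overlapped. Ndufs7, the subunit next to the quinone site, had differences of -0.77 and -0.80. None of these passed limma's test, with adjusted p between 0.458 and 0.818 at day 7 against naive cells. Ndufv2, another iron-sulphur subunit, had the highest member difference at day 28 against naive cells in 1 of its probe sets, 1.24 ± 0.72 (SE), with a limma adjusted p of 0.935. Its other probe sets differed by 0.17 and -0.52 in that comparison.

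The accessory subunits held 6 of the 7 members that fell at day 28 relative to day 7. Ndufb7, an accessory subunit on the intermembrane side, had log2 ratios of -2.06 and -1.24 at day 28, against 0.95, 0.97 and 0.95 at day 7. It fell 6.11-fold (-2.61 ± 0.35 (SE), limma adjusted p = 0.0190). The 3 naive arrays, at -0.07, -0.50 and 0.06, lay between the other groups, and the 3 groups did not overlap. The other Ndufb7 probe set differed by -2.80 ± 0.64 (SE) without passing the threshold.

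Ndufb2 and Ndufb8 are accessory subunits of the membrane arm. Ndufb2 had -1.76 and -1.53 at day 28, against 0.84, 0.59 and 0.80 at day 7 in 1 of its probe sets, and fell 5.23-fold (-2.39 ± 0.37 (SE), limma adjusted p = 0.0339). Ndufb8 had -1.16 and -1.17 at day 28, against 0.65, 1.17 and 1.26 at day 7, and fell 4.57-fold (-2.19 ± 0.38 (SE), limma adjusted p = 0.0439). In these probe sets the naive arrays read 0.18, -0.90 and -0.21 for Ndufb2 and -0.25, -0.78 and 0.22 for Ndufb8. In both, the naive arrays lay below all day 7 arrays and above both day 28 arrays. The other Ndufb2 probe set differed by -1.60 ± 0.59 (SE) between day 28 and day 7, with a limma adjusted p of 0.235. Its naive arrays overlapped both other groups.

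Ndufa3, a small membrane arm subunit, had the lowest difference of any member at day 28 against naive cells. It read -2.65 and -2.79 at day 28, against 0.99, 0.50 and -0.09 at day 7, and fell 9.11-fold (-3.19 ± 0.56 (SE), limma adjusted p = 0.0439). Its naive arrays, at 0.49, -1.24 and 0.08, overlapped the day 7 arrays but not the day 28 arrays. Against naive cells the day 28 difference was -2.50 ± 0.56 (SE) (limma adjusted p = 0.233), and the other Ndufa3 probe set differed by -2.06 ± 0.56 (SE).

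Ndufc1, another small accessory subunit, had the lowest member difference at day 28 against day 7. The probe set that passed the test read -1.91 and -1.94 at day 28, against 1.59, 1.55 and 0.68 at day 7, and fell 9.16-fold (-3.20 ± 0.57 (SE), limma adjusted p = 0.0470). Its other probe set had the larger difference, -3.74 ± 1.15 (SE), but did not pass, with a limma adjusted p of 0.171, and its day 28 arrays lay far from each other at -3.34 and -1.42. Ndufv3, an accessory subunit of the NADH-binding arm, read -2.01 and -1.54 at day 28, against 0.17, 0.17 and 0.33 at day 7, and fell 3.98-fold (-1.99 ± 0.34 (SE), limma adjusted p = 0.0427). In Ndufv3 the day 7 arrays lay only just above the naive arrays, at -0.67, -0.08 and 0.07, and the day 28 arrays stood apart from both.

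**Figure D4:**
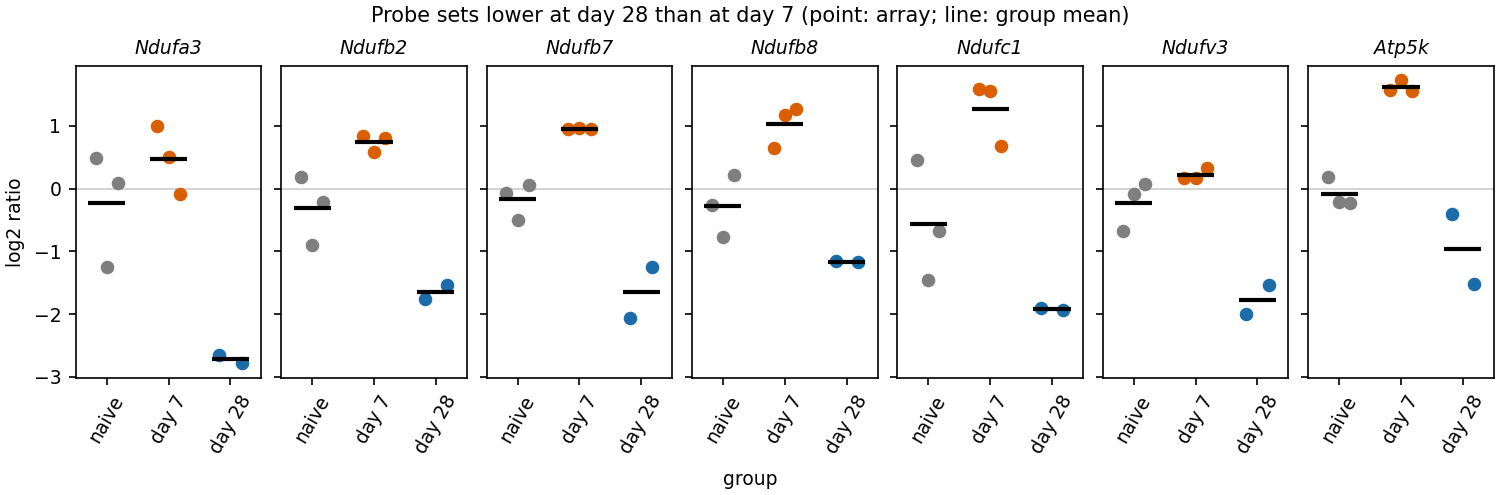
Log2 ratios on the 8 arrays (points) and group means (bars) of the 7 member probe sets that were lower at day 28 than at day 7 with a limma adjusted p under 0.05. In all 7 both day 28 arrays lie below all 3 day 7 arrays and all 3 naive arrays.

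Other accessory members are given by their day 7 values against naive cells, where none passed the threshold. Ndufab1, the mitochondrial acyl carrier protein, had 0.35, 0.77 and 0.51 at day 7, against -0.74, -0.83 and -0.46 in naive cells in 1 of its probe sets, a difference of 1.22 ± 0.33 (SE). Ndufb11, a membrane arm subunit, had 0.93, 0.77 and 1.01 at day 7, against -0.16, -0.06 and 0.06 in naive cells in 1 of its probe sets, a difference of 0.96 ± 0.25 (SE). In both, every day 7 array lay above every naive array, and the limma adjusted p was 0.145 and 0.140. Ndufa4 read 1.58, 0.38 and 1.45 at day 7, against 0.41, -2.05 and -0.99 in naive cells, with naive replicate 1 inside the range of the day 7 arrays. The 5 probe sets of Ndufa7 disagreed, with day 7 differences from -0.11 to 1.01.

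Complex II, succinate dehydrogenase, belongs both to the respiratory chain and to the citric acid cycle. Medians over its 4 subunit genes lay near 0. The 7 probe sets of Sdha, Sdhb, Sdhc and Sdhd had a median difference of 0.22 at day 7 against naive cells and -0.06 at day 28 against day 7, and 0 of 7 had an unadjusted p under 0.05 in either comparison. Of all probe sets tested, 12.4% were higher and 3.08% lower in the first, and 3.47% and 13.1% in the second. Sdha, the flavoprotein, read 0.26, 0.02 and -0.80 in naive cells, 0.50, -0.02 and -0.33 at day 7, and -0.14 and 0.33 at day 28 in 1 of its probe sets, and the 3 groups overlapped. Sdhb, the iron-sulphur subunit, read -1.63, 0.75 and 0.50 in naive cells, 0.80, -2.04 and 0.00 at day 7, and 0.00 and -0.28 at day 28. Its lowest values were those of naive replicate 1 and day 7 replicate 2.

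The 4 probe sets of the complex II assembly factors lay higher at day 7, with a median difference of 1.32. Sdhaf1, which helps to place the iron-sulphur clusters, had 1.84, 0.89 and 0.53 at day 7, against 0.40, -0.58 and -1.39 in naive cells. The groups did not overlap, and the difference was 1.61 ± 0.52 (SE) with a limma adjusted p of 0.208. Sdhaf2, needed for flavin attachment to Sdha, had 1.29, 0.24 and 0.73 at day 7, against 0.09, -0.10 and -1.76 in naive cells in 1 of its probe sets, a difference of 1.34 ± 0.53 (SE) with a limma adjusted p of 0.291. Within the low spike-in set the median for these 4 probe sets was 0.31.

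Complex III, the cytochrome bc1 complex, is represented by its large core proteins, the Rieske iron-sulphur protein and small subunits. The small subunits Uqcrq and Uqcrb had the largest day 7 differences in this complex. Uqcrq had 2.10, 1.63 and 1.46 at day 7, against -0.20, -1.42 and 0.18 in naive cells in 1 probe set, a difference of 2.21 ± 0.60 (SE) with a limma adjusted p of 0.151. Uqcrb had 0.94, 1.65 and 1.28 at day 7, against 0.48, -0.86 and -2.04 in naive cells in 1 probe set, a difference of 2.10 ± 0.59 (SE) with a limma adjusted p of 0.164. In both genes all day 7 arrays lay above all naive arrays, and in Uqcrb naive replicate 1 was the highest naive array.

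Uqcr11, a small accessory subunit, came closest to the threshold at day 28 against day 7 in complex III. It read -1.65 and -1.14 at day 28, against 0.77, 0.51 and 0.50 at day 7, a difference of -1.99 ± 0.37 (SE) with a limma adjusted p of 0.0524. Uqcrc1, a core protein, had the lowest day 7 difference of all members, -1.01 ± 1.05 (SE), from log2 ratios of 0.98, -2.16 and -0.31 at day 7, against -1.35, 1.90 and 0.99 in naive cells. The groups overlapped widely. Uqcrc2, the other core protein, differed by 0.996 and 0.74 in its 2 probe sets, and Uqcrfs1, the Rieske protein, by 1.35 ± 0.55 (SE).

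Complex IV, cytochrome c oxidase, has subunits that most tissues express and isoforms restricted to muscle, heart, lung or testis. The widely expressed subunits lay higher at day 7. Their 23 probe sets had a median difference of 1.17 against naive cells, with 20 above 0, and of 0.72 within the low spike-in set. Of the 21 tested, 12 were higher at an unadjusted p under 0.05, against 12.4% of all probe sets tested. At day 28 against day 7 the median was -1.40, and 15 of the 21 tested were lower at an unadjusted p under 0.05, against 13.1% of all probe sets tested. The 6 tissue-restricted isoforms, Cox4i2, Cox6a2, Cox6b2, Cox7a1, Cox8b and Cox8c, had a median of 0.08 at day 7 against naive cells, and of these only Cox7a1 had a ratio of at least 1 on 2 arrays.

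Cox5a, a subunit that faces the matrix, had the highest day 7 difference of all members. The probe set that gave it read 1.96, 1.44 and 2.31 at day 7, against 0.38, -1.19 and -3.000 in naive cells. The groups did not overlap, although naive replicate 1 lay well above the other naive arrays. The difference was 3.18 ± 0.76 (SE), 9.03-fold, with a limma adjusted p of 0.115, which did not pass. Without naive replicate 1 it was 4.001 with a limma adjusted p of 0.00865, without naive replicate 3 it was 2.31 with a limma adjusted p of 0.187, and with the spike-in term it was 1.52 with a limma adjusted p of 0.617. Its other probe sets differed by 2.63 and 1.40.

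Cox5b, the zinc-binding subunit, had 6 probe sets. The one with the smallest p read 1.69, 1.78 and 0.86 at day 7, against 0.36, -0.88 and -0.48 in naive cells, a difference of 1.78 ± 0.43 (SE) with a limma adjusted p of 0.119. Of the other tested Cox5b probe sets, 3 differed by 1.17 to 1.26 with no overlap of groups, and 1 by 0.61 with overlap. Cox6c, a membrane subunit, had 1.04, 1.45 and 1.32 at day 7, against 0.64, -1.65 and -1.17 in naive cells in 1 of its probe sets, a difference of 1.998 ± 0.58 (SE). At day 28 the same probe set read -2.22 and -1.53, a difference of -3.14 ± 0.65 (SE) from day 7 with a limma adjusted p of 0.0659.

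The day 7 differences of the other complex IV genes varied in size and sign. Cox4i1, the ubiquitous form of the largest nuclear subunit, read 0.05, -0.28 and -0.13 in naive cells, 0.96, -0.01 and 0.07 at day 7, and 0.01 and -0.68 at day 28, and its day 7 difference of 0.46 ± 0.36 (SE) had a limma adjusted p of 0.547. Cox8a, a small membrane subunit, had 2.34, 0.77 and 0.81 at day 7, against 0.15, -1.88 and -0.16 in naive cells in 1 of its probe sets, a difference of 1.94 ± 0.65 (SE). Cox6a1, Cox6b1 and Cox7a2 had differences of 0.33 to 1.37 over their 6 probe sets, and Cox7c, chosen for mention after its values were seen, -0.57 and -0.09. Cox7a2l, a factor that joins complexes III and IV into supercomplexes, read -1.20 and -0.84 at day 28, against 0.996, 0.04 and -0.23 in naive cells in 1 of its probe sets. Both day 28 arrays lay below all naive arrays, and the difference of -1.29 ± 0.45 (SE) had a limma adjusted p of 0.630.

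Complex V, ATP synthase, joins a catalytic F1 head in the matrix to a membrane part by stalks. The F1 head and the rest of the complex gave different medians. The 9 probe sets of the head (Atp5a1, Atp5b, Atp5c1, Atp5d and Atp5e) had a median day 7 difference of -0.10, with 4 above 0, and the 19 of the membrane part and stalk had 1.15, with 17 above 0. Atp5e, the small epsilon subunit, had the highest difference in the head, at 1.92 ± 0.59 (SE). Within the low spike-in set the medians were 0.97 for the head and 0.79 for the membrane part and stalk, so the contrast was not seen there.

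Atp5b, the catalytic beta subunit, read -2.22, 0.44 and -0.48 in naive cells, 0.42, -2.18 and -1.44 at day 7, and 0.36 and 0.41 at day 28. Its low values were those of naive replicate 1 and of day 7 replicates 2 and 3, which all belong to the low spike-in set. Day 7 replicate 1 also belongs to that set but read 0.42, and naive and day 7 arrays overlapped. It had the highest member difference at day 28 against day 7, 1.45 ± 0.92 (SE), with a limma adjusted p of 0.482. Atp5a1, the alpha subunit, had probe sets that disagreed, with day 7 differences of -0.64, 0.09 and 0.76. Those of Atp5c1, the gamma subunit, were 0.58 and -0.54.

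**Figure D5:**
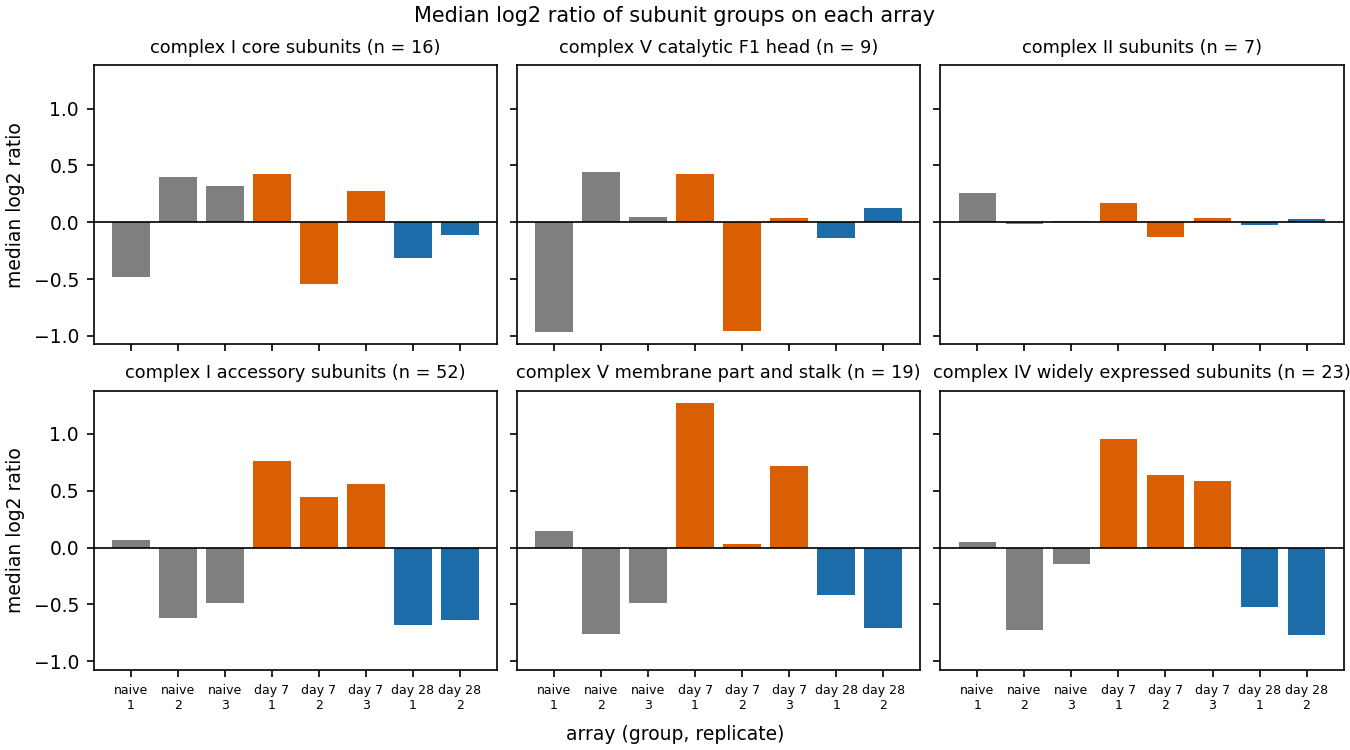
Median log2 ratio on each array (bars) for 6 groups of subunits of complexes I, II, IV and V, with the number of probe sets in each title. The core subunits of complex I and the F1 head of complex V are lowest on naive replicate 1 and day 7 replicate 2, whereas the accessory, membrane and complex IV subunits are above 0 on all 3 day 7 arrays.

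Atp5k, the e subunit of the membrane part, was the complex V member that fell at day 28. The probe set that passed the test read -0.40 and -1.52 at day 28, against 1.58, 1.73 and 1.55 at day 7, and fell 5.97-fold (-2.58 ± 0.39 (SE), limma adjusted p = 0.0283). The naive arrays, at 0.19, -0.21 and -0.24, lay between the other groups. At day 7 against naive cells the same probe set had the smallest p of all members, with a difference of 1.71 ± 0.35 (SE) and a limma adjusted p of 0.0767. Its other probe sets differed by 1.99 and 2.87 in that comparison, and in all 3 every day 7 array lay above every naive array.

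The c subunit of the membrane rotor is encoded by 3 genes, which differed from each other. Atp5g3 had 0.93, 1.36 and 0.87 at day 7, against 0.29, -1.43 and -2.01 in naive cells, a difference of 2.10 ± 0.65 (SE), and the groups did not overlap. Atp5g1 had 0.83, -0.22 and 0.19 at day 7, against 0.29, -0.99 and 0.93 in naive cells, a difference of 0.19 ± 0.53 (SE), and Atp5g2 had differences of 0.58 and -0.52 in its 2 probe sets. Atp5g1 was instead low at day 28, at -1.23 and -1.83, which is -1.61 ± 0.59 (SE) against naive cells with a limma adjusted p of 0.688. Atp5l, the g subunit of the membrane part, had 1.66, 0.90 and 1.38 at day 7, against 0.32, -1.50 and -1.30 in naive cells, a difference of 2.14 ± 0.53 (SE) with a limma adjusted p of 0.123.

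Promoters were read because the group mean of the array medians was highest at day 7 in each complex. That was not so for the core subunits of complex I, the subunits of complex II without assembly factors, or the F1 head. The letters searched on both strands were GCATGCGC for NRF1, CCGGAAG for ETS factors such as GABP, and AAGATGGC for YY1, factors known to bind promoters of respiratory genes. The ETS and YY1 letters can share the bases AAG, and matches of both overlapped in 0 of the 73 member windows. In windows of 300 bases, 250 before to 50 after the start, taken from RefSeq on GRCm38.p6 for the 68 member genes found there, the NRF1 letters occurred in 9 genes (13.2%, against 3.05% of all 27025 genes). The ETS letters occurred in 19 (27.9%, against 9.93%) and the YY1 letters in 9 (13.2%, against 3.19%). In the 250 bases before the start alone, the YY1 letters occurred in only 1 gene (1.47%, against 1.83%), so their higher share was not seen there. In those bases the NRF1 letters occurred in 7 genes (10.3%, against 2.56%) and the ETS letters in 13 (19.1%, against 7.83%). In the whole windows of 300 bases, at least 1 of the 3 occurred in 31 of 68 genes (45.6%, against 14.9%). The NRF1 letters were shortened after the counts of a longer form with 1 free base had been seen. In the same 300 bases that form occurred in 15 genes (22.1%, against 5.19%), and with it 38 genes held at least 1 of the 3 (55.9%, against 16.4%). Among the 7 genes that fell at day 28, Atp5k held the NRF1 and ETS letters, Ndufb7 the ETS letters, and Ndufa3, Ndufb8 and Ndufc1 the YY1 letters after the start, while Ndufb2 and Ndufv3 held none. The genes used for comparison were not matched to the members in base composition, on which such counts depend. A match is a description of these letters and no evidence of binding.

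The 120 bases before the start are given for 4 genes, 5′ to 3′ on the gene's strand, with a match in capitals. Atp5k and Ndufb7 fell at day 28 and hold a match, Ndufb2 fell and holds none, and Atp5b did not pass the test in any comparison and holds none in these bases.
Atp5k (chr5:108434400-108434519, minus strand): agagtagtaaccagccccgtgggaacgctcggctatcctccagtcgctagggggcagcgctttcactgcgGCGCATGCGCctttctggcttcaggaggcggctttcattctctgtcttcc
Ndufb7 (chr8:83566638-83566757, plus strand): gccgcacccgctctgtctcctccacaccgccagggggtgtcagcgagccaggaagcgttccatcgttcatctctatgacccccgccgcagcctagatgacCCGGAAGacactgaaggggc
Ndufb2 (chr6:39592445-39592564, plus strand): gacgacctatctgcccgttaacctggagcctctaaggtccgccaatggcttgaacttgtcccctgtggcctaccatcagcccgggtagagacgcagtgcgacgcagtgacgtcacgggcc
Atp5b (chr10:128083187-128083306, plus strand): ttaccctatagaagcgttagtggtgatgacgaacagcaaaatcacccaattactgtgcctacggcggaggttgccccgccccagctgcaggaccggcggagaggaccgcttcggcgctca
In Atp5k the capitals mark the NRF1 letters and in Ndufb7 the ETS letters.

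Other genes of the pathway are described from whole lists. Among assembly factors, 0 of 48 probe sets tested passed at day 7 against naive cells, and 1 at day 28 against day 7. That was Uqcc2, an assembly factor of complex III, at -1.56 and -1.81 at day 28, against 1.26, 1.03 and 1.11 at day 7, which fell by 2.81 on the log2 scale (limma adjusted p = 0.0208). Among mitochondrial carriers and import proteins, 0 of 63 passed at day 7 against naive cells and 2 fell at day 28 against day 7. They were Timm17b, a subunit of the inner membrane translocase, which fell by 2.96, and Slc25a4, an ADP/ATP carrier, which fell by 3.12 (limma adjusted p = 0.0110 and 0.0254). In all 3 genes the day 28 and day 7 arrays did not overlap.

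Electron carriers and further respiratory genes (12 probe sets tested), the citric acid cycle (25) and mitochondrial biogenesis and transcription (29) had 0 calls in every comparison. Over all 12, 29 and 37 probe sets of these lists, tested or not, the median differences at day 7 against naive cells were 0.35, 0.21 and 0.09. All lay below the 0.74 of all members. The smallest p of each list in this comparison was that of Etfa, the alpha subunit of the electron transfer flavoprotein, Fh1 and Nrf1, in the same order. They differed by 1.66, 1.44 and -1.43, with a limma adjusted p of 0.174, 0.0834 and 0.289. Idh3a, of isocitrate dehydrogenase, differed by 2.11 with a limma adjusted p of 0.195. In glycolysis, 3 of 30 probe sets rose at day 7 against naive cells, all of Tpi1, triosephosphate isomerase. Their differences were 3.20, 3.19 and 3.21 (limma adjusted p = 0.0150, 0.0486 and 0.0499), and the median over all 34 probe sets of the list was 0.29.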

How the data were processed

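The deposited table holds 1 linear ratio per probe set (22690) and array (8), with 0 missing values; GCRMA, with no version, is named in the submitters' processing notes. Per the labels' protocols, biotin-labelled cRNA was made from 10 µg of total RNA. The scaling is not given in the sources used here. The values show it: the median over the arrays is 1 (within 0.0015) for 47.9% of probe sets and above that for none. The authors' ratio was therefore taken as the level over the probe set's own median, or over a common floor. The number of arrays limits the precision.

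Ratios were analysed as log2 values with limma 3.58.1 in R 4.3.3, as 1 fit with 1 mean per group over the 8 arrays and empirical Bayes moderation. Probe sets that reached a ratio of 1 on 2 arrays or more entered (13042 of 22626 after removing 64 controls). P-values are two-sided and were adjusted by Benjamini-Hochberg over all 13042, with a threshold of 0.05, and the fit was checked on simulated data.

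Gene names come from the array annotation, and all 154 members matched RefSeq. The lists of assembly factors, electron carriers, citric acid cycle, biogenesis, carriers and import, glycolysis, mitosis and 9 cell types were described without a test of the list. Members named were those past the threshold, the smallest p per complex, the extremes of each comparison, genes with disagreeing probe sets, and fixed core subunits and isoforms. Members, subunit groups and lists were chosen with earlier results of these data known. Replicate numbers were checked for pairing by correlating the arrays' deviations from their group means. The correlations ran from -0.365 to 0.171 for same-numbered arrays and from -0.188 to 0.353 for the others. With 2 or 3 arrays a group, these values can neither show nor exclude pairing. The labels do not pair the arrays, so the numbers were not taken as pairs. Sequences are RefSeq's, on GRCm38.p6, while the build behind the arrays is not given in the sources used here. Alternatives covered the filter, normalization, variance model, arrays in the fit, array weights, replicate block, spike-in set, threshold, gene means and leaving out each array.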

Additional observations from a re-analysis of the deposited data

Results flagged for a closer look

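For 7 member probe sets the effect at day 28 differed from the effect at day 7, both taken against the same naive arrays, which is the tested difference between day 28 and day 7. In complex I, the log2 difference at day 28 minus day 7 was -3.20 for Ndufc1, -3.19 for Ndufa3, -2.61 for Ndufb7, -2.39 for Ndufb2, -2.19 for Ndufb8 and -1.99 for Ndufv3. In complex V it was -2.58 for Atp5k. Relative to naive cells, the day 28 difference was below 0 and the day 7 difference above 0 in each of the 7.

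Leaving out 1 array at a time, Ndufb7 was called in 4 of 8 fits, Atp5k in 3, Ndufb2, Ndufb8 and Ndufa3 in 2, and Ndufc1 and Ndufv3 in 1. Both day 28 arrays and all day 7 arrays lie in different spike-in sets, and the part of this in the differences cannot be told apart from that of time.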

How the results depend on the processing

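The median differences of the members kept their sign under every alternative run, from 0.54 to 0.99 at day 7 against naive cells when 1 array was left out. With the spike-in term, the median at day 28 against day 7 was -0.60. Calls depended on the processing. At day 7 against naive cells the count of 0 became 1 with no filter (0.649%, against 0.415% of all probe sets), 59 with array weights (42.4%, against 22.5%), and 0 to 36 when 1 array was left out. At day 28 against day 7 the count of 7 became 2 with the stricter filter (1.49%, against 0.572%), 24 with only the 2 groups compared (17.3%, against 4.53%), 49 with array weights (35.3%, against 12.0%), and 0 with trended variance (against 0.0613%), with the spike-in term (against 0 of all probe sets) and at an adjusted p under 0.01, and it was 0 to 29 when 1 array was left out. The estimation of the array weights stopped before it converged. The cause of these changes was not tested. At day 28 against naive cells the count was 0 in every alternative run. With the replicate number as a block, 0 members were called in each comparison, and of all probe sets 16 at day 7 and 9 at day 28 against naive cells and 15 between the immunized groups; the labels do not pair the arrays.

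Single members that turned sign had not been called. With the spike-in term, the day 7 difference was 0.67 for 1 Atp5a1 probe set, -0.32 for 1 Cox5b probe set and -0.0398 for Sdhaf4, and the day 28 minus day 7 difference of Atp5b was -0.75. With the mean over a gene's probe sets, the day 7 difference was 0.0662 for Atp5a1, 0.0214 for Atp5c1 and 0.0325 for Atp5g2. Sign changes of uncalled values within 1 SE of 0 were not counted. The 8 arrays, with 2 in the smallest group, limit what can be called.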

Other observations

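Among the cytotoxic cell markers, Nkg7 rose at day 7 against naive cells by 4.05 (limma adjusted p = 0.0107). Cd8b1 rose at day 28 by 3.70 against naive cells and by 3.87 against day 7 (limma adjusted p = 0.00936 and 0.00559), and Cd8a by 3.22 against day 7 (limma adjusted p = 0.0433). These genes were named after their values were seen. The other 5 of 8 probe sets tested of that list passed in no comparison.

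No probe set of the T cell (18 tested), plasma and germinal centre B cell (9), monocyte and macrophage (8), dendritic cell (2), neutrophil (3), erythroid and platelet (2) or stroma and endothelium (2) lists passed limma's adjusted p of 0.05 in any comparison. At an unadjusted p under 0.05 at day 7 against naive cells, 3 T cell probe sets were lower, 3 plasma and germinal centre B cell probe sets were higher, and 1 monocyte and macrophage probe set was higher. Of all probe sets tested, 3.08% were lower and 12.4% higher at that p. At day 28, 1 T cell probe set was higher against day 7, and Lyz2, of the monocyte and macrophage list, was higher against both groups. Lyz2 read 5.43 and 2.19 at day 28, against -0.49, -0.16 and -0.61 in naive cells (limma adjusted p = 0.163). The mitosis list, with 10 probe sets higher at day 7 than in naive cells, had 9 of 24 lower at day 28 than at day 7. Cdk1, the kinase that starts mitosis, read 3.34, 3.03 and 3.73 at day 7, against -0.92, -0.67 and -1.04 in naive cells, and rose by 4.24 (limma adjusted p = 0.00102).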
